A study of Mus musculus with 6 samples.

Results

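Divergent promoter pairs are genes that sit head to head on opposite strands and are read away from a short shared stretch of DNA. A pair was taken here as 2 protein-coding genes whose annotated 5' ends lay within 1 kb and pointed away from each other on chromosomes 1 to 19 and X. The mouse genome held 754 such pairs, made of 1487 of the 21755 protein-coding genes (6.84%). Their acetylated regions were chosen by position alone: 682 of the 29277 regions shared by both Cell Signaling replicates overlapped the stretch between the 5' ends or the 500 bp beside it. These regions marked 674 of the 754 pairs (acetylated pairs), and the other 80 pairs had no shared region in that window (unmarked pairs). A further 19001 genes had no other protein-coding 5' end within 1 kb (single promoters), and 1267 genes fell in neither class. Of the pairs, 42 shared a gene with another pair, 78 held a gene known only by a Gm or Rik name, and 3 repeated the symbols of another pair because the annotation holds more than 1 model of the gene.

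Acetylation of histone H3 at lysine 27 (H3K27ac) was measured by HT-ChIPmentation in alveolar macrophages (AMs), which clear particles and surfactant from the air spaces of the lung. In this assay the transposase Tn5 inserts sequencing adapters into antibody-bound chromatin. All cells were labelled wild type, came from bronchoalveolar lavage and were sorted. Per the study's methods the mice were of the C57BL/6J strain and, where an age is given, 9 weeks old. There were 3 antibody libraries: 1 made with an Active Motif antibody (36364 peaks) and 2 replicates made with a Cell Signaling antibody (56175 peaks in replicate 1 and 49139 in replicate 2), and the matching inputs entered only through the authors' peak calling. Since all libraries came from wild-type cells, the comparisons below are between kinds of promoters. The labels do not say whether the replicates came from separate animals, so their spread may be technical, and antibody, library, sequencing run, sonication and depth cannot be told apart. Depth was unknown from the peak lists, so a missing peak means only that none passed the authors' threshold. The labelled cell type was checked on marker promoters, within 1 kb of the gene's 5' end: all 12 AM markers had a peak in each library, while a shared region was found at 1 of 7 epithelial markers (Epcam), 0 of 4 T and NK cell markers, 1 of 4 B cell markers (Ms4a1), 1 of 4 neutrophil markers (S100a8) and 1 of 3 endothelial markers (Pecam1). By library, peaks at epithelial markers were found at 0 of 7 with the Active Motif antibody, 3 of 7 in replicate 1 and 1 of 7 in replicate 2.

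Head-to-head genes are common in mammalian genomes, where many such pairs lie in CpG islands and encode proteins of DNA repair, mitochondria and other functions that most cells use. RNA polymerase II starts in both directions from the nucleosome-depleted stretch between the genes, and H3K27ac marks the nucleosomes on either side of active start sites. Many promoters with a single protein-coding gene are also transcribed upstream, but that transcript is usually short-lived and non-coding.

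The stretches that carry the comparison are printed first. They are the bases strictly between the 5' ends, on the plus strand of GRCm38 (mm10), as read from the reference genome. In each pair the first-named gene lies on the minus strand, to the left of the sequence, and the second-named gene on the plus strand, to the right. Capitals mark matches, on either strand, to 12 short motifs searched: the NRF1 core (GCATGCGC), the ETS core (CCGGAAGT), the GC box (GGGCGG), the CCAAT box (CCAAT), the TATA box (TATAAA), the cyclic AMP response element (TGACGTCA), the E-box (CACGTG), the YY1 core (AAGATGGC), the PU.1 site (GAGGAAGT), the CEBP site (TTGCGCAA), the AP-1 site (TGACTCA) and the octamer (ATTTGCAT). A match is a string of letters and not evidence that a factor binds there. The first set holds acetylated pairs, chosen because the results below turn on them: the gene of a retinoid X receptor, that of the liver X receptor alpha, a textbook pair, 3 of the most strongly enriched pairs and a histone pair.
Slc39a7/Rxrb (chr17:34031683-34031811): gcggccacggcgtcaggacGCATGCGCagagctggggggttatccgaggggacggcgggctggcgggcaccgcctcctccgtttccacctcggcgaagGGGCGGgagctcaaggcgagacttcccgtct
Nr1h3/Acp2 (chr2:91202835-91202884): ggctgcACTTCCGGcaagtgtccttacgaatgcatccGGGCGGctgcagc
Brca1/Nbr1 (chr11:101551956-101552148): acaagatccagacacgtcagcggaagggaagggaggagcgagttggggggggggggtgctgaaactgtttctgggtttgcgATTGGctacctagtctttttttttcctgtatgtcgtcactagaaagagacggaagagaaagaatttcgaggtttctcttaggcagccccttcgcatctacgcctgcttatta
Mrps18b/Ppp1r10 (chr17:35916390-35916433): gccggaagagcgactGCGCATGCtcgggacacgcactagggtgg
Atp6v1a/Naa50 (chr16:44139706-44139829): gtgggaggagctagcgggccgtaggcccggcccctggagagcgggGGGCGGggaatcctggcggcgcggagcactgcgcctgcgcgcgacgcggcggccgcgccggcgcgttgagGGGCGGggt
Sqstm1/Mgat4b (chr11:50210828-50210889): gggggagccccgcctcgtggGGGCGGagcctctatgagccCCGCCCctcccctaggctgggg
Hist1h2ac/Hist1h2bc (chr13:23683949-23684198): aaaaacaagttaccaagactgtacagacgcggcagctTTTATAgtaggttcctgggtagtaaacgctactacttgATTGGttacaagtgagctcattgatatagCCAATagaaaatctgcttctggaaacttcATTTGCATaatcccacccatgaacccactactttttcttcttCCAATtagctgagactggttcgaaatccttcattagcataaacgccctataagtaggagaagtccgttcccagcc
In this set the stretch ranged from 44 bases (Mrps18b/Ppp1r10) to 250 bases (Hist1h2ac/Hist1h2bc), and 6 of the 7 stretches had a GC content above 50%. The histone pair stood apart, with 41.6% GC, 3 CCAAT boxes, 1 TATA box and 1 octamer, a motif known from histone H2B promoters. The second set holds unmarked pairs: the basement membrane collagens, and a pair of imprinted loci chosen after their values were seen.
Col4a4/Col4a3 (chr1:82586850-82586920): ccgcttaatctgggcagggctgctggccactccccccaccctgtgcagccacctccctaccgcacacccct
Sgce/Peg10 (chr6:4747208-4747305): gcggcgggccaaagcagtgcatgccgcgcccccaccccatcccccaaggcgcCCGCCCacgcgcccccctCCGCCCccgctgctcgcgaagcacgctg
Peg3/Usp29 (chr7:6730432-6730577): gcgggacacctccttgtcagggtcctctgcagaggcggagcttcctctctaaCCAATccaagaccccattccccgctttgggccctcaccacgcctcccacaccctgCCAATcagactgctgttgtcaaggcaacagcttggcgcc
These stretches were also GC-rich (69.0%, 79.6% and 61.6%), and the Sgce/Peg10 stretch held 13 CpG dinucleotides and 2 GC boxes, so that a GC-rich stretch between head-to-head genes was not always acetylated in AMs.

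Rxrb, which encodes the retinoid X receptor beta, the partner of several nuclear receptors, was the only gene of a list of 35 genes taken from the study that lay in a pair. Its neighbour Slc39a7 encodes a zinc transporter of the endoplasmic reticulum. Their 5' ends lay 130 bp apart (chr17:34031682 and chr17:34031812), and both were covered by 1 region of 3007 bp. The highest fold enrichment of a peak in the window, as given by the authors' peak caller over local background, was 12.4 in the Active Motif library, 45.4 in Cell Signaling replicate 1 and 37.3 in replicate 2. Within 2 kb of its 5' end, the Rxrb side held 1580, 1829 and 1792 covered bases with the Active Motif antibody, replicate 1 and replicate 2, and the Slc39a7 side held 718, 982 and 1047. The mark thus reached further into Rxrb than into Slc39a7 in each of the 3 libraries.

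Nr1h3, which encodes the liver X receptor alpha, a sterol sensor, started 51 bp from Acp2, the gene of a lysosomal acid phosphatase. Folds there were 11.1 with the Active Motif antibody, 24.2 in replicate 1 and 34.8 in replicate 2. Gla, the gene of the lysosomal alpha-galactosidase, lay 54 bp from Hnrnph2, which encodes an RNA-binding protein, with folds of 32.8, 55.7 and 47.6 in the same order of libraries. Npc2, the gene of a lysosomal cholesterol carrier, lay 99 bp from Isca2, which encodes a mitochondrial iron-sulfur assembly factor, with folds of 26.0, 31.5 and 37.7. These were the only pairs with a gene of a list of 39 macrophage and lysosome genes, and both 5' ends were covered at each of them. No gene of a list of 40 AM genes (Siglecf, Marco, Pparg and others) lay in a pair (0 of 40, with a 95% Wilson interval up to 8.76%). All 40 were single promoters, of which 38 were acetylated (95%).

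The first comparison asked how often the promoters of head-to-head genes carried the mark. The window of a pair was acetylated in 89.4% of pairs (674 of 754, 95% Wilson interval 87.0 to 91.4) and that of a single promoter, 500 bp either side of its 5' end, in 37.8% (7183 of 19001, 37.1 to 38.5). Over all protein-coding genes, 43.6% had a shared region within 500 bp of the 5' end. By library, a peak was present at 84.2% of pairs and 32.1% of single promoters with the Active Motif antibody, at 89.5% and 38.5% in replicate 1, and at 90.8% and 40.2% in replicate 2. Since a pair's window is longer, the same comparison was made on the single base of the 5' end. That base was covered by a shared region in 85.3% of pair genes (83.5 to 87.0) and 35.0% of single promoters (34.4 to 35.7), against 40.7% of all genes. Single promoters with an annotated non-coding 5' end upstream on the other strand lay between them, at 60.7% (847 genes, 57.4 to 63.9). In the Active Motif library, which the choice of regions did not use, the shares were 60.2% of pair genes and 21.3% of single promoters, a difference of 38.9 percentage points. The difference was 49.99 points in replicate 1 and 49.8 points in replicate 2. All 3 libraries thus gave the same direction, but an exact sign-flip permutation test over 3 libraries cannot give a two-sided p below 0.25, which is its value here. Intervals cover counting error over genes only, and genes of a pair are not independent of each other.

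Pairs had more CpG dinucleotides than single promoters: the median count in 1001 bp was 68 at pairs and 35 at single promoters. In 5 groups of CpG count, the share of covered 5' ends was close in the poorest groups and differed in the richer ones. With 0 to 9 CpG, 0 of 20 pair genes (up to 16.1%) and 4.19% of single promoters were covered, and with 10 to 24 CpG, 13.6% of pair genes (6 of 44) and 12.6% of single promoters. With 25 to 52 CpG the shares were 78.4% and 43.5%, with 53 to 75 CpG 90.7% and 62.7%, and with 76 to 172 CpG 92.0% and 61.4%. Weighted over the CpG groups, the difference was 29.0 points for shared regions, 25.04 points with the Active Motif antibody, 30.2 points in replicate 1 and 28.5 points in replicate 2, in place of 50.3, 38.9, 49.99 and 49.8 points.

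**Figure D1:**
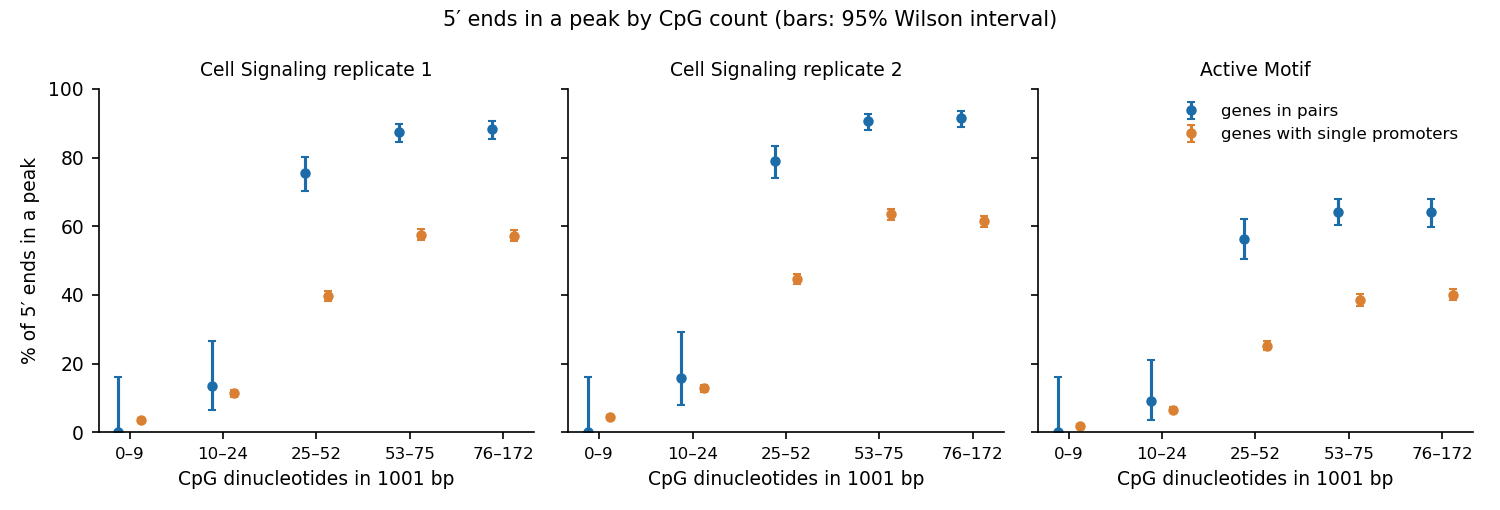
The share of gene 5' ends inside a peak (%, vertical axis) is plotted against the CpG count in 1001 bp around the 5' end, in 5 groups, for genes of divergent pairs and for single promoters, with 95% Wilson intervals as error bars and a panel for each of the 3 libraries. From 25 CpG upward the pair genes lie above the single promoters in every panel (56.4% against 25.3% with the Active Motif antibody at 25 to 52 CpG), while with fewer than 25 CpG the intervals overlap.

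The Active Motif library was then read at the regions themselves. Of the acetylated pairs, 635 of 674 had an Active Motif peak in the window (94.2%, 92.2 to 95.7), and of the unmarked pairs 0 of 80 had one (up to 4.58%). Acetylated single promoters had one in 84.6% (6079 of 7183, 83.8 to 85.4), a difference of 9.58 points (Newcombe interval 7.40 to 11.3). The window of a pair was longer than that of a single promoter by the stretch between the ends, and the difference was not corrected for this. Acetylated single promoters with a non-coding 5' end upstream had an Active Motif peak in 91.2% (497 of 545, 88.5 to 93.3), an interval that overlaps that of pairs. Counted by region, 628 of 682 regions at pairs held an Active Motif peak (92.1%, 89.8 to 93.9), 86.9% of those at single promoters did, and 61.5% of all shared regions did. Every region in a pair's window was counted. For a single promoter only the widest region was, and regions that also reached a pair were left out. Pairs also carried somewhat higher folds. The median highest fold at acetylated pairs and acetylated single promoters was 11.1 and 10.7 with the Active Motif antibody, 23.1 and 18.8 in replicate 1, and 30.6 and 26.9 in replicate 2. Sorted by the q-value of the strongest replicate 2 peak into 5 groups, the share with an Active Motif peak was 53.8% at pairs and 39.7% at single promoters in the weakest group, and 98.3% and 89.2% in the next. In the other 3 groups all pairs had one, against 98.1% to 98.8% of single promoters. Weighted over these groups the difference was 4.34 points, and without the flanks of 500 bp it was 19.1 points. Without flanks, however, the whole stretch of a pair is set against the single base of a single promoter's 5' end, so these windows are unlike in length. With 1 Active Motif library no test of these differences between antibodies or promoters was possible.

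**Figure D2:**
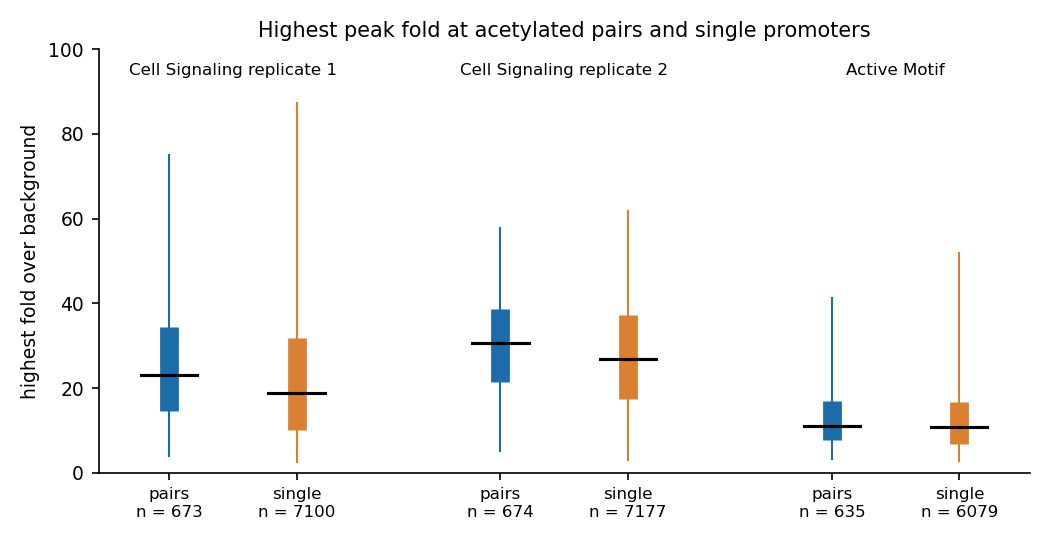
The highest fold enrichment of a peak in the window (vertical axis, the authors' value over local background) is shown for acetylated pairs and acetylated single promoters with a peak in each library, where black lines are medians, thick bars interquartile ranges and thin lines the lowest to the highest value. The medians of pairs lie above those of single promoters (30.6 against 26.9 in replicate 2), and the ranges overlap throughout.

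Where the mark lay around the 5' ends differed between the 2 kinds of promoters. Around a single promoter it leaned into the gene: within 2 kb, the mean covered length upstream was 56.8% of that downstream with the Active Motif antibody, 65.2% in replicate 1 and 66.6% in replicate 2. Around a pair both sides are downstream of a gene, and the minus-strand side had 97.7%, 97.3% and 100.7% of the covered length of the plus-strand side. Which gene lies on the minus strand is arbitrary, so a mean near equality arises however unequal the sides of each pair are. It cannot be set against the upstream share of single promoters. Single promoters with a non-coding 5' end upstream leaned into the gene less, with 74.1%, 80.8% and 79.4%. The median covered length on the minus-strand and plus-strand sides of acetylated pairs was 515 and 516.5 bp with the Active Motif antibody, 771 and 775.5 bp in replicate 1, and 850 and 841 bp in replicate 2. Acetylated single promoters had medians of 288 bp upstream and 630 bp downstream with the Active Motif antibody, 564 and 947 bp in replicate 1, and 666 and 1081 bp in replicate 2. By these medians, covered length inside a gene of a pair was shorter than downstream of a single promoter in each of the 3 libraries. A pair was called acetylated wherever the mark lay in its window, so its medians also include sides of genes without the mark. The median longer side differed less. It was 709.5 bp at pairs and 721 bp at single promoters with the Active Motif antibody, 971.5 and 1064 bp in replicate 1, and 1079 and 1216 bp in replicate 2.

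**Figure D3:**
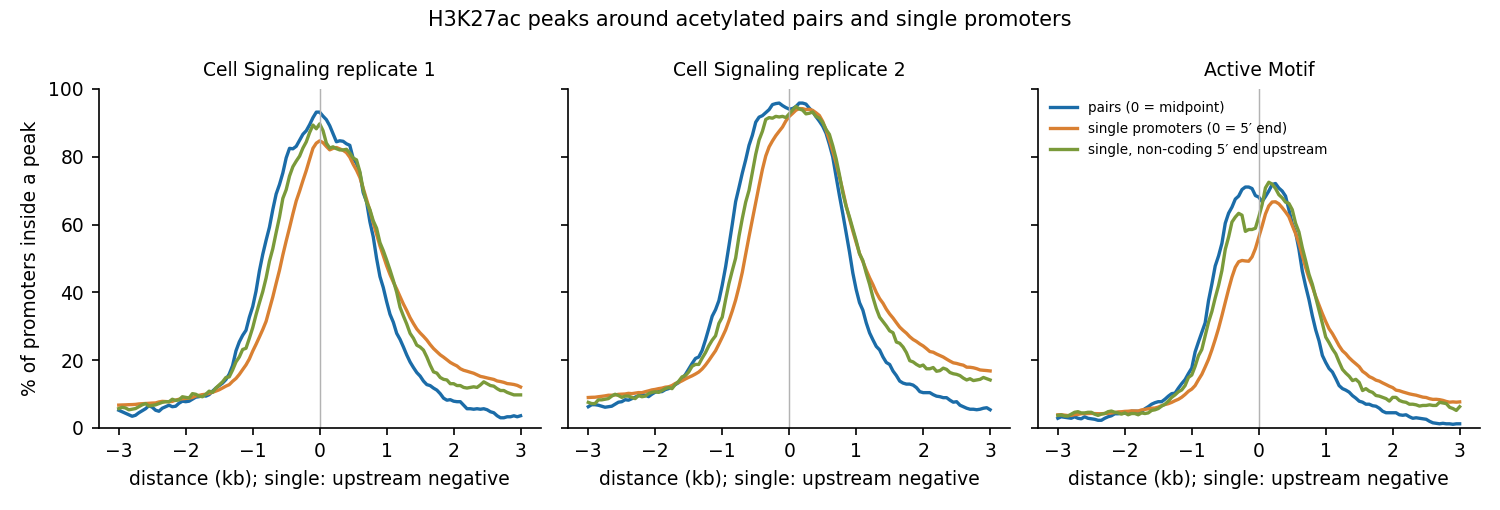
The share of promoters inside a peak (%, vertical axis) is plotted against distance (kb, 3 kb either side) in a panel for each library, for acetylated pairs (0 at the midpoint, minus-strand gene to the left), acetylated single promoters (0 at the 5' end, gene to the right) and those with a non-coding 5' end upstream. At 500 bp to the left and to the right, 79.7% and 79.5% of pairs were covered in replicate 1, against 55.1% and 77.8% of single promoters.

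At the midpoint itself, 68.1% of acetylated pairs were covered by Active Motif peaks, 93.2% by peaks of replicate 1 and 94.1% by those of replicate 2. The strongest summit lay between the 5' ends for 165 of 673 pairs of replicate 1 (24.5%), 56 of 674 of replicate 2 (8.31%) and 78 of 635 of the Active Motif library (12.3%). The rest were split between the genes, for example 49.1% on the side of the minus-strand gene and 42.6% on that of the plus-strand gene in replicate 2. The stretch is short beside these peaks: the median distance between the ends was 124.5 bp. The strongest peaks had median widths of 1605 bp in replicate 1, 1862.5 bp in replicate 2 and 998 bp with the Active Motif antibody. A low share of summits thus does not show that they avoid the stretch. The whole stretch was inside a peak at 56.0% of acetylated pairs with the Active Motif antibody, 86.9% for replicate 1 and 90.6% for replicate 2. Both 5' ends were covered by a shared region in 626 of the acetylated pairs (92.9%, 90.7 to 94.6), a single end in 36 (5.34%) and neither in 12 (1.78%). In the Active Motif library both ends were covered in 389 acetylated pairs (57.7%), a single end in 131 and neither in 154.

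Within a pair the sides were often unequal, and the inequality recurred between libraries. The longer side had a median of 971.5 bp and the shorter side 606.5 bp in replicate 1, and 1079 and 688.5 bp in replicate 2. With the Active Motif antibody these medians were 709.5 and 301 bp. At acetylated single promoters they were 1064 and 476 bp in replicate 1, 1216 and 605 bp in replicate 2, and 721 and 191 bp with the Active Motif antibody. The same gene had the longer side in both replicates in 574 of 664 pairs that had a longer side in each (86.4%, 83.6 to 88.8). Of these 574 pairs, 540 had sides of unequal length in the Active Motif library, and in 486 of the 540 the longer side was on that same gene (90.0%, 87.2 to 92.3). Pairs with equal Active Motif sides, including any without a covered base on either, were left out. At Brca1/Nbr1, the genes of a homologous recombination factor and an autophagy receptor, the Nbr1 side held 1717, 2000 and 2000 covered bases with the Active Motif antibody, replicate 1 and replicate 2, and the Brca1 side 151, 785 and 918. At Psmb1/Tbp, the genes of a proteasome subunit and the TATA-binding protein, the Psmb1 side held 1253, 2000 and 2000 and the Tbp side 304, 712 and 622.

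**Figure D4:**
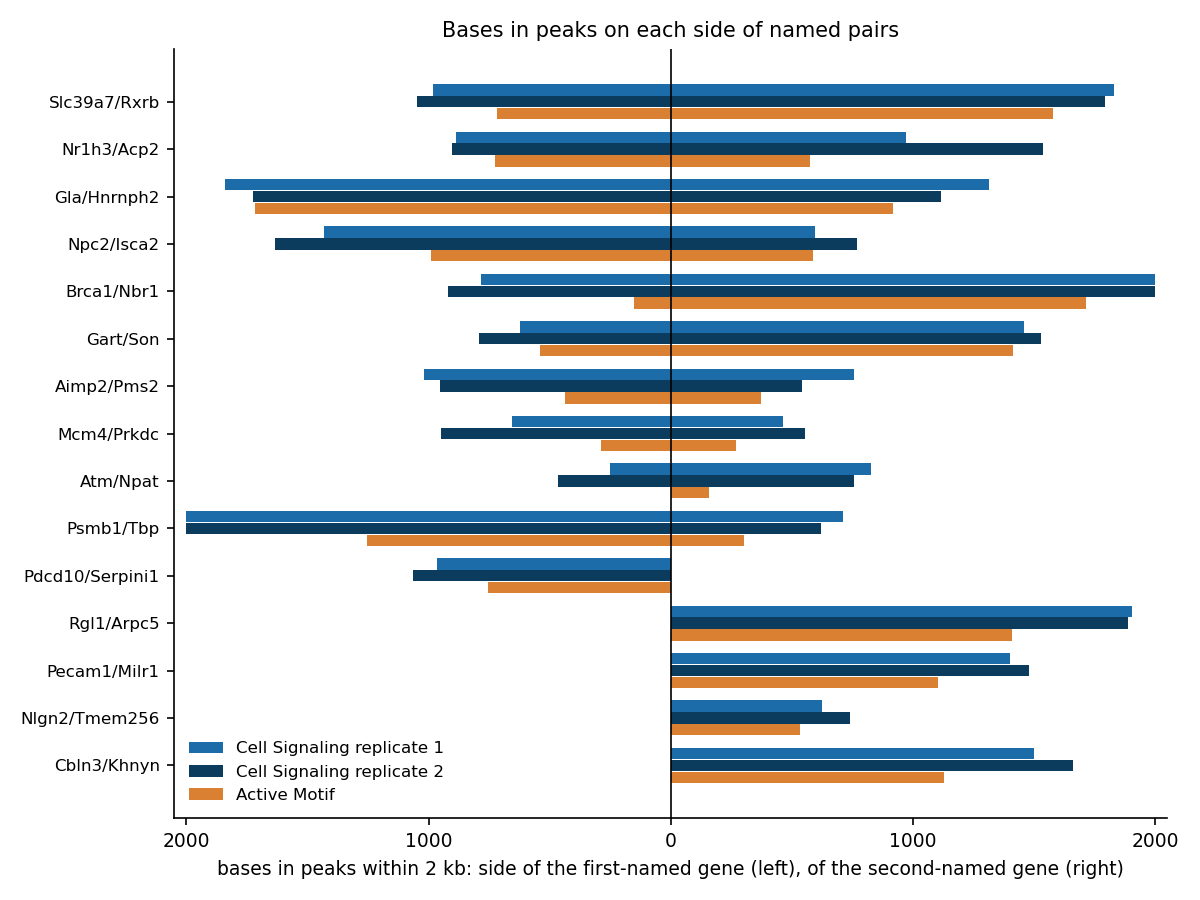
Bars give the bases in peaks within 2 kb of the 5' end (horizontal axis, bp) on the side of the first-named gene, to the left, and of the second-named gene, to the right, for 15 named pairs, with a bar for each library. The lowest 5 pairs, Pdcd10/Serpini1 to Cbln3/Khnyn, have bars on a single side in all 3 libraries, and Psmb1/Tbp has longer bars on the Psmb1 side.

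Most pairs lay close together: the median distance between the 5' ends was 124.5 bp in acetylated pairs and 158.5 bp in unmarked pairs. The share of all pairs with both ends in a shared region was 95.3% at 1 to 50 bp, 84.8% at 51 to 100 bp, 84.0% at 101 to 200 bp, 86.0% at 201 to 300 bp, 81.8% at 301 to 500 bp and 50% at 501 to 1000 bp. The intervals of the middle groups overlap, and those of the first and last groups (90.2 to 97.8 and 38.6 to 61.4) do not. In the Active Motif library the share was 71.1% at 1 to 50 bp and 28.6% at 501 to 1000 bp. Among neighbouring divergent genes further apart, both ends were covered in 30.0% at 1001 to 2000 bp, 28.5% at 2001 to 5000 bp and 25.3% at 5001 to 10000 bp. Where both ends were covered, a single region held them in 98.1% to 100% of pairs within 1 kb, 73.3% at 1001 to 2000 bp, 11.25% at 2001 to 5000 bp and none of 127 at 5001 to 10000 bp. The limit of 1 kb thus fell inside this range. Just inside it, Btf3l4/Txndc12 (987 bp) was acetylated and Asphd1/Sez6l2 (981 bp) was not. Just outside it, Serpina7/4930513O06Rik (1007 bp) was not acetylated and the next pair, Gpr108/Trip10, was.

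**Figure D5:**
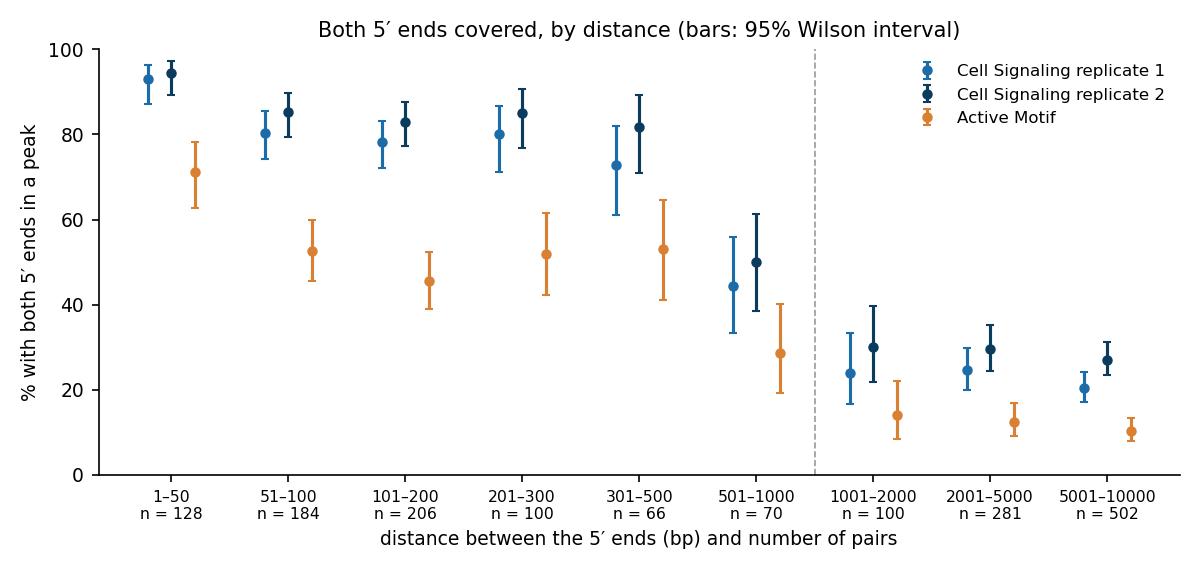
The share of pairs with both 5' ends inside a peak (%, vertical axis) is plotted against the distance between the 5' ends (bp, in groups), for each of the 3 libraries, with 95% Wilson intervals as error bars. Left of the dashed line are the divergent pairs and right of it neighbouring divergent genes more than 1 kb apart. The Active Motif share is 71.1% at 1 to 50 bp, 28.6% at 501 to 1000 bp and 10.4% at 5001 to 10000 bp.

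In 29 acetylated pairs 1 gene's side had no covered base within 2 kb in any of the 3 libraries. These pairs were chosen for that property after the values were seen, and their numbers are a description. Their 5' ends lay further apart, with a median distance of 598 bp against 110.5 bp in the 500 pairs covered on both sides in all 3 libraries. Their median folds were 7.25 (21 pairs with a peak), 7.69 and 14.6 for the Active Motif antibody, replicate 1 and replicate 2, against 12.6, 26.9 and 33.3 in those 500. The 500 were required to have covered bases in every library, so pairs without an Active Motif peak could not be among them. In the other 145 acetylated pairs the median folds were 7.25 (114 pairs with a peak), 11.9 and 19.4, and the median distance was 136 bp. At Pecam1/Milr1 the side of Milr1, which encodes a receptor of mast cells and other myeloid cells, held 1103, 1401 and 1479 covered bases, and the side of Pecam1, an adhesion molecule of endothelium and leukocytes, held none. The Pecam1 region counted among the endothelial markers above was therefore the region on the Milr1 side. At Rgl1/Arpc5 the mark lay on the side of Arpc5, a subunit of the actin-nucleating Arp2/3 complex, with 1409, 1905 and 1888 bases, although the ends lay 191 bp apart. At Pdcd10/Serpini1, a textbook pair, the Pdcd10 side held 755, 966 and 1064 bases and the side of Serpini1, which encodes the neuronal inhibitor neuroserpin, held none. At Nlgn2/Tmem256 the side of Nlgn2, the gene of a synaptic adhesion protein, was empty, and the Tmem256 side held 532, 626 and 741 bases. At Cbln3/Khnyn the side of Cbln3, which encodes a secreted protein of cerebellar neurons, was empty, and the Khnyn side held 1128, 1501 and 1660 bases. The empty side was not always that of a gene used by few cell types: at Sirt1/Dnajc12 the side of Sirt1, which encodes a widely used deacetylase, was empty and the Dnajc12 side held 276, 433 and 457 bases, and at Chtf18/Rpusd1 the side of Chtf18, the gene of a clamp-loader subunit for DNA replication, was empty and the Rpusd1 side held 0, 155 and 528.

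Of a list of 44 genes from textbook pairs, only 20 lay in a pair by the rule used here, and they formed 10 pairs. A further 6 were single promoters, of which 0 were acetylated. The 10 pairs were acetylated in 9 cases (90%, 59.6 to 98.2), close to the 89.4% of all pairs, and all 9 had an Active Motif peak, as did 94.2% of all acetylated pairs. The strongest were Brca1/Nbr1, with folds of 30.7 for the Active Motif antibody, 59.2 in replicate 1 and 50.4 in replicate 2, and Gart/Son, the genes of a purine synthesis enzyme and a splicing cofactor, with 30.7, 57.3 and 51.5. Pdcd10/Serpini1 had 12.8, 28.4 and 30.2. Aimp2/Pms2, a synthetase-complex scaffold and a mismatch repair factor, had 11.1, 24.6 and 23.0. The lower part of the range was made of Psmb1/Tbp (3.76, 18.5 and 23.6), Mcm4/Prkdc (5.54, 16.1 and 10.6), which encode a replicative helicase subunit and the DNA-dependent protein kinase, and Atm/Npat (4.69, 15.8 and 10.5), which encode the ATM kinase and an activator of histone genes. The exception was Col4a4/Col4a3, which encode collagen chains of basement membranes: their ends lay 72 bp apart, no library had a peak in the window, and the nearest shared region was 137212 bp away.

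Gene groups differed in how many of their members lay in pairs. DNA repair and replication genes did so for 42 of 142 (29.6%), mitochondrial ribosome genes for 18 of 78 (23.1%), respiratory chain and ATP synthase genes for 24 of 102 (23.5%), and canonical histone genes for 27 of 67 (40.3%), against 6.84% of all genes. Genes of families with expression in few tissues (protocadherins, olfactory receptors, keratins and others) did so for 6 of 1890 (0.317%). Other lists lay near the share of all genes: 5.58% of zinc finger genes, 7.74% of vesicle and RAB genes, 8.88% of ubiquitin ligase and protease genes and 9.89% of cytosolic ribosome genes. These shares are fixed by the genome and involve no library. All 43 pairs with a DNA repair or replication gene were acetylated (91.8 to 100%, against 89.4% of all pairs), and 40 had an Active Motif peak, as did 94.2% of all acetylated pairs. Of that list's single promoters, 88.4% were acetylated. Rad17/Taf9, the genes of a checkpoint clamp loader and a TFIID subunit, had folds of 22.6 (Active Motif), 50.4 (replicate 1) and 49.1 (replicate 2). Osgep/Apex1, a tRNA-modifying enzyme and the main abasic-site endonuclease, had 22.3, 45.0 and 46.5. Abhd12/Gins1, a lipid hydrolase and a subunit of the replicative helicase, had 25.1, 49.97 and 42.3, with the mark mainly on the Abhd12 side (2000 covered bases in each library, against 0, 302 and 210 on the Gins1 side).

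All 18 pairs with a mitochondrial ribosome gene were acetylated (82.4 to 100%, an interval that holds the 89.4% of all pairs), against 95.5% of the list's single promoters, led by Mrps18b/Ppp1r10 (34.9, 67.3 and 52.2) and Mrpl41/Pnpla7 (27.4, 56.5 and 51.8). All 24 pairs with a respiratory chain or ATP synthase gene were acetylated (86.2 to 100%, which also holds 89.4%), against 83.1% of its single promoters. Examples were Ndufa2/Ik (29.4, 50.4 and 47.8) and Tatdn1/Ndufb9 (24.7, 44.2 and 46.5), both with a complex I subunit, and Uqcrq/Gdf9 (21.3, 43.4 and 40.8). At the last of these the side of Uqcrq, a complex III subunit, held 1092 and 1114 covered bases in replicates 1 and 2, and the side of Gdf9, an oocyte growth factor, 453 and 630, with none on the Gdf9 side in the Active Motif library. All 5 pairs with an aminoacyl-tRNA synthetase gene were acetylated, among them Mrps12/Sars2 (10.03, 32.7 and 34.6), whose proteins both work in mitochondrial translation.

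All 8 pairs with a proteasome gene (67.6 to 100%) and all 13 with a chaperone gene (77.2 to 100%) were acetylated, against 83.8% and 65.5% of the single promoters of these lists. The share over all pairs was 89.4%, and it lay inside the intervals of these lists and of the splicing, mediator, ribosome, ubiquitin, zinc finger and vesicle lists that follow. Psme2/Rnf31, the genes of an interferon-inducible proteasome activator and a subunit of the linear ubiquitin ligase, had folds of 27.3, 50.4 and 37.3, and Dnajb4/Fubp1 had 22.6, 55.4 and 43.6. For splicing and RNA processing 31 of 33 pairs were acetylated (93.9%, against 88.6% of single promoters), led by Gla/Hnrnph2 and Rita1/Ddx54 (29.8, 56.9 and 38.1). For mediator and RNA polymerase genes 24 of 25 were (96%, against 89.0%), led by Gtf2e1/Rabl3 (30.7, 58.0 and 52.4), where Gtf2e1 encodes a subunit of the general factor TFIIE. For the cytosolic ribosome 8 of 9 were (88.9%, against 82.7%), led by Zwilch/Rpl4 (34.5, 52.3 and 48.9). The exception was Rnf151/Rps2, whose annotated 5' ends had no peak in any library, while the nearest shared region began 888 bp away, and the Rps2 side held 904, 1095 and 1113 covered bases within 2 kb, beyond the window. Ubiquitin ligase and protease genes had 26 of 31 pairs acetylated (83.9%, against 55.5% of their single promoters), zinc finger genes 20 of 23 (87.0%, against 62.1%) and vesicle and RAB genes 11 of 12 (91.7%, against 78.6%). Of 5 pairs with a gene of a restricted family 2 were acetylated, against 1.39% of their single promoters. At Nt5c3/Vmn1r4, whose second gene encodes a vomeronasal receptor, folds were 13.2, 21.1 and 33.1, and both 5' ends were covered. The lists overlap, since a pair can hold a gene of each, and no test was run on them.

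Canonical histone genes, whose transcription is tied to DNA replication, formed 14 pairs, of which 13 held a histone gene on both sides. Of these 14 pairs 11 were acetylated (78.6%, 52.4 to 92.4), against 94.9% of the list's single promoters (83.1 to 98.6), and all 11 had an Active Motif peak. The 89.4% of all pairs lay inside the interval of the histone pairs. Folds were highest at Bola1/Hist2h2ab and Hist2h2ac/Hist2h2be (28.5 for the Active Motif antibody, 53.0 in replicate 1 and 49.6 in replicate 2 at both) and lowest at Hist1h2ah/Hist1h2bk (5.54, 15.8 and 16.2). The neighbouring pairs on chromosome 3 lay in 1 region of 3073 bp (chr3:96218915-96221987), and Hist1h2ae/Hist1h2bg and Hist1h2bf/Hist1h2ad lay in 1 region of 2914 bp (chr13:23571681-23574594). They were the only 2 regions with 4 genes of head-to-head pairs, among 21 regions that reached 2 pairs. The unmarked histone pairs were Hist1h2ba/Hist1h2aa, testis variants, and Hist1h2bq/Hist1h2ao and Hist1h2ap/Hist1h2br. In the last 2 pairs every run of 50 bases in the window also occurred elsewhere in the chromosome 13 cluster (1220 and 1188 runs, 100%), against 14.2% to 55.3% of runs at the acetylated pairs of that cluster and 10.7% at Hist1h2ba/Hist1h2aa. The authors filtered reads on mapping quality, and its part in the missing peaks was not tested.

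The 10 most strongly enriched pairs were taken by the mean rank of the −log10 q of their strongest peak in the Cell Signaling replicates. They had folds of 61.1 to 74.96 in replicate 1 and 51.7 to 57.7 in replicate 2. The choice used the q-values of these libraries and not the folds, and the Active Motif folds, 14.9 to 39.5, came from a library that did not enter it. The first was Atp6v1a/Naa50, the genes of a subunit of the proton pump that acidifies lysosomes and of an N-terminal acetyltransferase, with a fold of 37.5 for the Active Motif antibody, 67.7 in replicate 1 and 56.6 in replicate 2. Ddias/Prcp, whose second gene encodes a lysosomal carboxypeptidase, had 34.9, 74.96 and 55.5, with the mark mainly on the Prcp side (2000 covered bases in each library, against 321, 844 and 520 on the Ddias side). Sqstm1/Mgat4b, whose first gene encodes the autophagy receptor p62, had the highest Active Motif fold of these (39.5, 61.1 and 57.7). Tgfbrap1/AI597479 had 31.5, 66.5 and 56.4, Rbks/Babam2 had 32.4, 67.7 and 52.9, and Mrps18b/Ppp1r10 is given above. Atg12/Ap3s1, whose first gene encodes a ubiquitin-like autophagy protein, had 36.6, 62.7 and 54.0. Tada3/Arpc4, the genes of a histone acetyltransferase adaptor and an Arp2/3 subunit, had 32.8, 61.5 and 54.8, and Mastl/Yme1l1, a mitotic kinase and a mitochondrial protease, had 19.4, 61.9 and 53.5. The tenth, Bend6/Dst (14.9, 62.7 and 51.7), owed its rank to summits at −10017.5 bp in replicate 1 and −9884.5 bp in replicate 2 from the midpoint, far on the Bend6 side but inside the same wide peaks. Its Active Motif summit lay 377.5 bp from the midpoint, on the Dst side.

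Regions at pairs had a median width of 1910 bp (interquartile range 1432.5 to 2462.75), against 1803 bp at single promoters and 1385 bp over all shared regions. The regions at single promoters were the widest of each promoter, whereas all regions at pairs were counted. Regions at pairs ranged from 183 to 22913 bp, and the widest region at a single promoter had 48091 bp. These extremes come from 682 and 7088 regions and depend on those counts. Wider than 5 kb were 23 regions. The widest held Snx1/Ciao2a (22913 bp, chr9:66109685-66132597), which encode an endosomal sorting nexin and an iron-sulfur assembly factor. Next came Bend6/Dst (16886 bp, chr1:33896354-33913239), Cep170/Sdccag8 (15573 bp, chr1:176807017-176822589), Zfp91/Lpxn (10479 bp, chr19:12792330-12802808) and Dclre1b/Ap4b1 (9859 bp, chr3:103800820-103810678). The Snx1/Ciao2a region was made of 19 Active Motif peaks, 9 peaks of replicate 1 and a single peak of replicate 2, so its width as 1 region rests on replicate 2.

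An Active Motif peak was missing at 39 acetylated pairs. They were weak in the Cell Signaling libraries, with a median fold of 6.15 in replicate 1 (38 pairs with a peak in the window) and 9.64 in replicate 2, against 24.2 and 31.5 at pairs with an Active Motif peak. The 54 regions at pairs that held no Active Motif peak were narrow, with a median of 629 bp against 1959.5 bp. The strongest of these pairs were Slf1/2210408I21Rik (16.5 in replicate 1 and 10.9 in replicate 2), Helq/Mrps18c (11.9 and 19.2), Polr3a/Rps24 (10.4 and 19.7) and Cc2d1a/4930432K21Rik (9.23 and 15.0). Helq encodes a DNA helicase of crosslink repair, and Polr3a the largest subunit of RNA polymerase III. The next were Pqlc2/Akr7a5 (6.92 and 13.3), Gm17657/Tbc1d22b (6.53 and 14.0), AU022252/P3h1 (6.53 and 13.7), Rad54l/Pomgnt1 (7.69 and 11.7) and Rfng/Gps1 (6.92 and 10.1). At Arl3/Sfxn2 the shared region reached the window only through replicate 2 (12.9), and replicate 1 had no peak inside it.

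Most of the 80 unmarked pairs lay far from any shared region. A peak of 1 or both Cell Signaling replicates was present at 12 of them (2 in replicate 1 and 11 in replicate 2), with folds of at most 9.14, and 68 had no peak in any of the 3 lists. The nearest shared region lay a median of 29434 bp from the 5' ends. It lay within 2 kb at 5 pairs (Odf3l1/Cspg4, Ddx25/Pus3, Rnf151/Rps2, Hist1h2bq/Hist1h2ao and Hist1h2ap/Hist1h2br) and beyond 10 kb at 61. A gene known only by a Gm or Rik name was in 19 of the 80. The pairs from Sgce/Peg10 to Smc1b/Ribc2 below were chosen after their values were seen, for known roles outside macrophages. They do not stand for all 80. Sgce/Peg10 and Peg3/Usp29 are imprinted loci, and their nearest regions lay 128714 and 346681 bp away. Duox2/Duoxa2 encode a thyroid and epithelial oxidase and its maturation factor (62914 bp), Kirrel2/Nphs1 junction proteins of the kidney filter (26914 bp), and Klc3/Ckm a kinesin light chain of germ cells and muscle creatine kinase (21504 bp). Smyd1/Cd8b1 encode a muscle methyltransferase and the CD8 beta chain of T cells (27962 bp), and Smc1b/Ribc2 include a meiotic cohesin subunit (94433 bp). Other unmarked pairs, also picked after their values were seen, were not chosen for such roles. Slc27a5/Trim28 (10047 bp) and Sgsh/Slc26a11 (21363 bp) had no peak in any library. At Lsm7/Sppl2b and Tada2a/Acaca, with 82 and 92 CpG in 1001 bp, a peak was called in replicate 2 alone (folds of 7.996 and 2.89).

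The sequence around the midpoint differed between acetylated and unmarked pairs in the same direction as between acetylated and unmarked single promoters. The median CpG count in 1001 bp was 71 at acetylated pairs and 45.5 at unmarked pairs, and 62 at acetylated and 16 at unmarked single promoters. In 501 bp centred on the midpoint or the 5' end, the ETS core CCGGAAGT was found in 16.6% of acetylated pairs (14.0 to 19.6) and 3.75% of unmarked pairs (1.28 to 10.5), against 10.8% of acetylated and 1.303% of unmarked single promoters and 5.27% of all 19755 promoters searched. The GC box GGGCGG, which binds SP1, was found in 80.9% (77.7 to 83.7) and 57.5% (46.6 to 67.7) of acetylated and unmarked pairs, against 75.5% and 34.9% of single promoters and 51.3% of all promoters. The YY1 core AAGATGGC was found in 11.7% (9.51 to 14.4) and 5% (1.96 to 12.2) of pairs, and in 4.38% of all promoters. Between the 5' ends, a stretch mostly shorter than these 501 bp, the YY1 core was found in 1.78% of acetylated and 2.5% of unmarked pairs. The NRF1 core GCATGCGC was found in 8.31% (6.45 to 10.6) and 1.25% (0.221 to 6.75) of pairs, and in 3.79% of all promoters. For YY1 and NRF1 the intervals of acetylated and unmarked pairs overlap.

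The CCAAT box, the TATA box and the AP-1 site had no higher share at acetylated than at unmarked pairs, and all intervals given for them overlap. The CCAAT box was found in 53.3% (49.5 to 57) of acetylated pairs and 53.8% (42.9 to 64.3) of unmarked pairs, and in 48.7% of all promoters. The TATA box TATAAA was found in 6.53% (4.90 to 8.65) and 7.5% (3.48 to 15.4) of pairs, against 9.23% of acetylated and 22.7% of unmarked single promoters. The PU.1 site GAGGAAGT, written for the macrophage ETS factor, was found in 4.15% (2.89 to 5.94) and 1.25% (0.221 to 6.75) of pairs and 4.48% of all promoters, and the AP-1 site TGACTCA in 3.86% (2.65 to 5.59) and 6.25% (2.70 to 13.8) of pairs and 6.66% of all promoters. Between the 5' ends, where the stretches differ in length, 76.1% of acetylated pairs held at least 1 of the 12 motifs. The share of promoters with a motif depends on base composition, which differed between these groups, and no test was run.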

How the data were processed

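H3K27ac was measured by HT-ChIPmentation in sorted, formaldehyde-fixed AMs. Per the study's methods, sonicated chromatin was captured with antibody-coated protein G beads and tagmented by Tn5. The authors used Cutadapt for trimming, Bowtie2 for alignment (mm10), Picard for duplicates, samtools for a mapping quality filter and MACS3 for peaks over input (q-value 0.05). The submitters' processing notes also name CASAVA and bcl2fastq (version 2.20.0.422 for the Cell Signaling libraries). The authors deposited 1 peak list per library, which gives for each peak a fold enrichment (a ratio to local background), the −log10 of the p-value and of the q-value, a q-value-based score and a summit offset. The fold, the −log10 q and the summit were used here, and the score and the p-value were not. The smallest deposited −log10 q was 1.31. The lists hold no read counts.

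Overlapping peaks of both Cell Signaling replicates were merged, a peak of each being required (1 bp overlap). Gene 5' ends came from GENCODE vM21 and bases from GRCm38, and coordinates are counted from 1. Shares carry 95% Wilson intervals. The analysis used Python 3.11.15, pandas 2.3.3, numpy 2.4.6 and matplotlib 3.10.9. On simulated data, 100 of 100 simulated pairs were recovered.

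The members, gene lists, motifs and comparisons were chosen with earlier results of these data known, and unrelated genes (the Rps6k kinases and Col4a3bp) were removed from the list patterns after their names were seen. Named were textbook pairs, pairs with a gene of the study or AM lists, the 10 strongest pairs, the 5 widest regions, the regions with 2 pairs of distinct genes, up to 4 pairs per list by strength, up to 10 acetylated pairs without an Active Motif peak, and pairs on either side of the 1 kb limit. Other names are said to be chosen after their values were seen. The values of 1 textbook pair are not reported here. Alternatives were stricter peaks, each Cell Signaling replicate alone, equal numbers of peaks, other distances, flanks and overlaps, transcript starts in place of gene 5' ends, overlapping pairs, other single promoters, and CpG or strength groups. Those without pairs of Gm or Rik genes, or without pairs that share a gene, were added after seeing the data.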

Additional observations from a re-analysis of the deposited data

How the results depend on the processing

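Only the differences between pairs and single promoters could change sign, and neither did under any alternative. Of 84 alternative values of the main results, 51 moved by less than the spread between replicates or the counting interval, and 33 moved further. The spread between replicates was computed from the values of each replicate alone, which are themselves among the 84. Some of the 51 were fixed in advance. For the upstream share the main value is the mean of the replicates, so each replicate alone always lies within their spread. Adding overlapping ends does not touch the single promoters, whose share stays at 37.8%. Pairs acetylated (89.4%) gave 89.5% to 90.8% from 1 Cell Signaling replicate, 90.8% with a largest distance of 500 bp, 87.8% without flank, 88.3% with overlapping ends added and 91.0% without Gm or Rik genes. Single promoters acetylated (37.8%) gave 38.5% to 40.2% from 1 replicate, 36.3% with a −log10 q of at least 5, 36.4% with equal numbers of peaks, 35.0% without flank and 36.6% without those that have a non-coding 5' end upstream. The difference in covered 5' ends (50.3 points) gave 49.8 to 49.99 from 1 replicate, 50.8 with stricter peaks, 50.7 with equal numbers, 51.9 with 500 bp, 49.5 with transcript starts, 48.6 with overlapping ends, 51.5 without non-coding neighbours, 29.0 within CpG groups, 51.6 without Gm or Rik genes and 50.1 without pairs that share a gene. Flank and overlap do not enter this difference and were not run for it.

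Pairs with an Active Motif peak (94.2%) gave 88.3% with stricter peaks, 79.8% without flank and 90.0% with an overlap of at least 200 bp. Their difference from single promoters (9.58 points) gave 10.9 to 12.9 from 1 replicate, 7.27 with equal numbers, 13.3 with 200 bp and 4.34 within strength groups. It gave 19.1 without flank, where a pair keeps its whole stretch and a single promoter only the base of its 5' end. The median region width (1910 bp) gave 1412.5 to 1779 bp from 1 replicate, and both ends covered (92.9%) gave 87.0% to 90.9%. The upstream side as a percent of the downstream side (65.9% over both replicates) gave 65.2% to 66.6% from 1 replicate and 75.2% within 1 kb. Pairs with a motif (76.1% between the ends) gave 97.5% in 250 bp either side of the midpoint. Other causes of these shifts were not tested. No paired analysis was possible because only the Cell Signaling libraries are replicates and no comparison is between groups of samples. A lack of peaks cannot be told apart from low depth, since the lists hold peaks only.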
